A study of Homo sapiens with 4 samples.

Results

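Loci with exactly 3 poly(A) sites were examined for the use of their first, middle and last site in HEK293, a human cell line of embryonic kidney origin. There were 1426 such loci, of 18156 loci in all. The 3′ ends of polyadenylated RNA had been sequenced by A-seq, in which reverse transcription is primed where the transcript body meets its poly(A) tail, so that each read ends at a cleavage position. The 4 conditions had 1 library each: an siRNA against CF Im 68, an siRNA against CstF-64, a scrambled control siRNA, and no siRNA. Cells given an siRNA were collected 3 days later, and per the labels the siRNA treatment was checked by Western blot. All libraries came from the same cell line, and without replicates the variation among cultures could not be measured. How far the 2 control libraries lay apart is given throughout as background, which also holds any effect of transfection with the control siRNA. The loci are named by their positions on hg19, given 1-based, since the files carry no gene names. For the same reason neither the fall of the targeted transcripts nor markers of the cell line were analysed here.

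Most human genes carry more than one poly(A) site, and sites placed one after another in a terminal exon give transcripts that share a coding region and differ in the length of the 3′ untranslated region. The choice is made as RNA polymerase passes each site in turn, so the most 5′ site is the first to be offered to the cleavage machinery. CF Im 68 belongs to cleavage factor I, a complex that recognises UGUA elements on the 5′ side of the cleavage position. CstF-64 contacts RNA for the cleavage stimulation factor and recognises U- and GU-rich elements on its 3′ side. A locus with 3 sites shows what a pair of sites cannot, namely whether an intermediate site behaves like the upstream or the downstream end.

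The 3-site loci were defined from the reads. On each strand of chromosomes 1 to 22 and X, positions were ranked by their reads summed over the 4 libraries and each top position absorbed those up to 25 nt away as 1 site, and sites were kept from 1 RPM (reads for each 1e+06 reads of the library) upwards, averaged over libraries. Each locus was then built around its most used site, with every same-strand site up to 10 kb away. Sites with at least 5% of the mean RPM of the locus were counted. Exactly 3 such sites were found in 1711 loci, and 1426 of these had at least 50 reads over the 3 sites in every library. The other 285 fell below that number, and in 271 of them the CstF-64 library, which was the smallest, had the fewest reads. The lowest library had 50 reads just inside the limit and 49 just outside it, and the smallest counted site held 5.002% of its locus, against 4.991% for the largest site left out of a member locus. Mean levels over all libraries therefore chose the loci and sites, and these levels are given only as a description. A locus can hold more than 1 gene, and reads of oligo-dT priming inside A-rich transcript stretches were not separated from true 3′ ends.

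Total reads were 12792623 with CF Im 68 siRNA, 7343112 with CstF-64 siRNA, 13443454 with control siRNA and 15806975 with no siRNA. The 1426 loci held 8.14%, 6.92%, 7.33% and 7.38% of these, in the same order. They had 1041459 reads with CF Im 68 siRNA, 508204 with CstF-64 siRNA, 985405 with control siRNA and 1165815 with no siRNA, so precision was lowest in the CstF-64 library. At the minimum of 50 reads, counting error alone gives a share of 50% an exact 95% interval (Clopper-Pearson) of 35.5 to 64.5%.

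The 3 sites of a locus were spread over a median of 2254 nt from first to last, with quartiles of 1050 and 4432 nt. The first and middle sites were a median of 603 nt apart (quartiles 176 and 1690 nt), and the middle and last sites 939 nt (270 and 2379 nt). The gap on the 3′ side was the longer one in 832 loci and the gap on the 5′ side in 594. In 344 loci all 3 sites lay within 1000 nt, and in 30 the span exceeded 10000 nt, because a locus reaches 10 kb to either side of its most used site. In 380 loci at least 1 pair of neighbouring sites was less than 100 nt apart. Positions were grouped within 25 nt only, so some such neighbours may be 1 broad site split in 2.

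The 3 kinds of site had similar shapes. The most used position of a site held a median of 63.7% of its reads at first sites, 63.4% at middle sites and 65.3% at last sites, and the reads were spread over a median of 11, 10 and 10 positions. The median level was 6.44 RPM at first, 6.52 RPM at middle and 7.59 RPM at last sites. The loci lay on the plus strand in 732 cases and on the minus strand in 694. In 147 loci (10.3%) a site of the other strand lay between the first and the last site. Further sites below the 5% limit were present in 463 loci (32.5%). Reads at such minor sites made up 3.11% of the locus reads with CF Im 68 siRNA, 2.61% with CstF-64 siRNA, 2.64% with control siRNA and 2.49% with no siRNA.

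With CF Im 68 siRNA the reads of these loci lay more at the first and less at the last site than in either control library, while the middle site kept about the same share on average. The first site had a mean share of 38.0% with CF Im 68 siRNA, 30.2% with CstF-64 siRNA, 29.1% with control siRNA and 29.2% with no siRNA. The middle site had 31.7% with CF Im 68 siRNA, 33.4% with CstF-64 siRNA, 32.8% with control siRNA and 32.7% with no siRNA. The last site had 30.3% with CF Im 68 siRNA, 36.3% with CstF-64 siRNA, 38.0% with control siRNA and 38.1% with no siRNA. Loci varied far more among themselves than libraries did, with an SD over loci of 24.9 points for the first-site share with CF Im 68 siRNA and 24.3 points with control siRNA. Summed over all loci rather than averaged, the first sites took 39.0% of reads with CF Im 68 siRNA, 31.5% with CstF-64 siRNA, 29.8% with control siRNA and 30.8% with no siRNA.

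**Figure D1:**
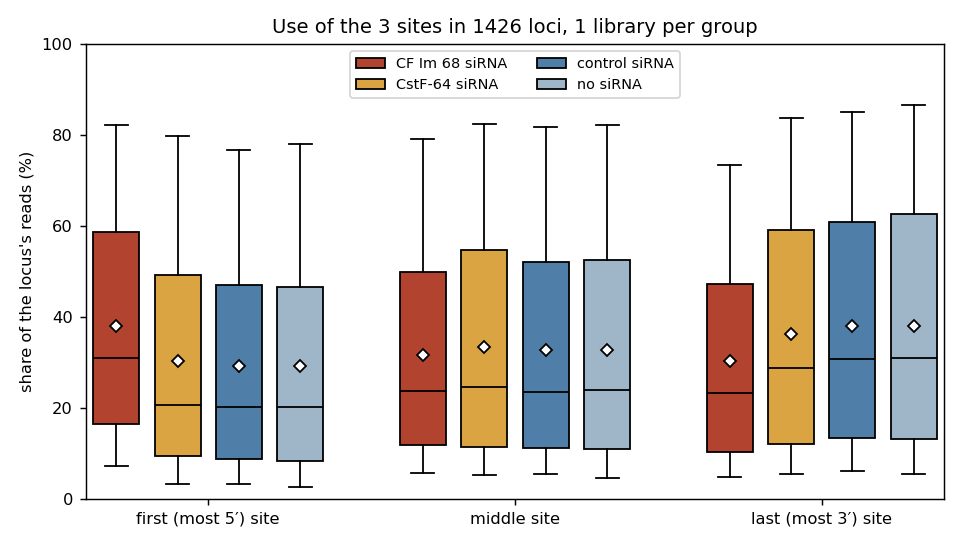
Share of the reads of a locus (%, vertical axis) at its first, middle and last site in 1426 loci, with a box for each of the 4 libraries. Boxes span the quartiles, lines mark medians, diamonds mark means and whiskers span the 5th to 95th percentile over loci; the CF Im 68 box is the highest of the 4 at the first site (mean 38.0%, against 29.1% with control siRNA and 29.2% with no siRNA) and the lowest at the last site.

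Locus by locus, the first-site share with CF Im 68 siRNA minus that with control siRNA had a median of 6.66 points, with quartiles of 1.11 and 15.6 points, and minus that with no siRNA a median of 7.59 points. Over the first sites of all 4984 tested loci with at least 2 sites, these medians were 5.29 and 5.83 points. The share was larger than with control siRNA in 79.6% of the 3-site loci and larger than with no siRNA in 74.8%. At the last site the medians were -5.55 and -5.82 points, against -4.34 and -4.70 points in all tested loci. For the middle site they were -0.739 points against control siRNA and 0.0336 points against no siRNA, so that its direction turned with the choice of control library. Control siRNA minus no siRNA gave medians of -0.0192, 0.244 and 0.0771 points at the first, middle and last site. The typical size of a difference between the control libraries, in either direction, was 4.04 points at the first, 4.82 at the middle and 5.11 at the last site.

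Single sites were then compared between libraries. The reads of each site were set against those of the other counted sites of its locus by Fisher's exact test (two-sided), with Benjamini-Hochberg adjustment over the 13817 sites of the 4984 loci. Such a test sets 1 library against another and cannot stand for the conditions. A site was called higher or lower after a depletion when the test against control siRNA gave an adjusted p below 0.05 and its share lay on the same side of both control libraries with a distance of 10 points or more from each. With CF Im 68 siRNA the first site was higher in 475 of 1426 loci (33.3%), and over the first sites of all tested loci 26.8% were. It was lower in 24 loci (1.68%, against 1.97% of all first sites). The last site was lower in 378 loci (26.5%, against 21.8% of all last sites) and higher in 27 (1.89%, against 2.11%). The middle site moved in either direction, and was higher in 89 loci (6.24%) and lower in 139 (9.75%), where all inner sites of loci with 3 or more sites gave 6.44% and 9.38%. In loci with 2 sites the first was higher in 508 of 2583 (19.7%), and in loci with 4 or more sites in 355 of 975 (36.4%). Whether these shares differ between classes of loci was not tested. Sites were counted by levels that include the depleted libraries, which favours calls of higher use at some first sites. With sites and loci chosen on the 2 control libraries, CF Im 68 siRNA gave 27.8% higher first sites and 20.6% lower last sites. No share over all tested loci was taken at that setting.

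Against no siRNA alone, 211 middle sites (14.8%, against 13.5% of all inner sites) were higher and 266 (18.7%, against 17.7%) lower with CF Im 68 siRNA, which is more than 1.5 times the counts against both controls. First sites were then higher in 601 loci (42.1%, against 35.7% of all first sites) and lower in 100 (7.01%, against 6.98%). Last sites were lower in 535 (37.5%, against 32.3%) and higher in 90 (6.31%, against 6.74%).

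The 2 control libraries differed from each other in both directions alike. With a rule that uses these libraries only (adjusted p below 0.05 by Fisher's exact test and at least 10 points), the first site was higher with control siRNA than with no siRNA in 109 loci (7.64%, against 7.38% of all first sites) and lower in 121 (8.49%, against 7.91%). The middle site was higher in 129 (9.05%, against 7.72% of inner sites) and lower in 126 (8.84%, against 7.25%). The last site was higher in 139 (9.75%, against 8.67%) and lower in 152 (10.7%, against 8.97%). By the same 2-library rule against control siRNA, the first site was higher in 548 loci (38.4%, against 32.2% of all first sites) and lower in 37 (2.59%, against 3.23%) with CF Im 68 siRNA. Any of the 3 sites was called in 655 loci (45.9%) with CF Im 68 siRNA against both controls, where 35.5% of all tested loci had such a call. Between the control libraries 486 loci (34.1%) had one by the 2-library rule, against 26.5% of all tested loci. By that rule against control siRNA, CF Im 68 siRNA gave 780 loci (54.7%, against 43.8% of all tested loci). CstF-64 siRNA gave 344 (24.1%, against 19.7%). Of all tested loci, 2583 had only 2 sites, and fewer sites leave fewer places for a call. Shares of all tested loci with any site called, here and below, are thus not a like background for loci with 3 sites.

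**Figure D2:**
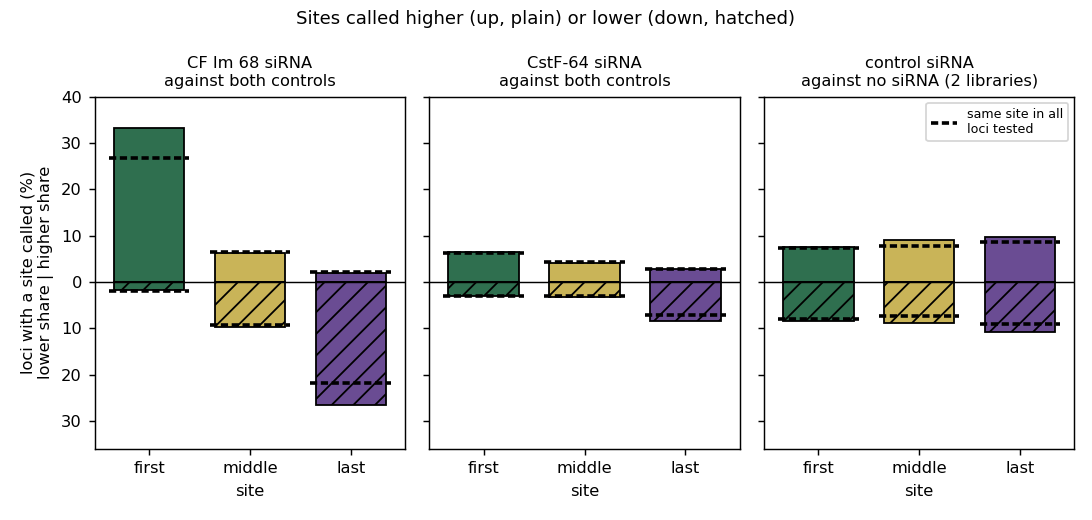
Percentage of 3-site loci (vertical axis) in which the first, middle or last site was called higher (plain bars, up) or lower (hatched bars, down) with CF Im 68 siRNA and with CstF-64 siRNA against both controls, and with control siRNA against no siRNA by the 2-library rule. Dashed lines give the percentage for the same kind of site over all tested loci; the first bar reaches 33.3% up and 1.68% down, while bars of the control comparison lie between 7.64 and 10.7% in both directions.

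The moves with CF Im 68 siRNA fell into a few patterns. In 234 loci (16.4%) the first site was higher and the last lower with no call at the middle site. In 111 loci only the first site was called, as higher, and in 62 only the last, as lower. The first site gained at the cost of the middle in 92 loci, with the last not called, and at the cost of both others in 22. The middle site gained at the cost of the last in 46 loci with the first not called, and both the first and the middle gained in 13. The opposite patterns were rarer: the first was lower and the last higher in 7 loci, and the first lower and the middle higher in 9. No site was called in 771 loci (54.1%). Shares of a locus add up to 100%, so a call at 1 site forces changes at the others. Patterns were not counted over all tested loci or between the control libraries, so they cannot be called particular to these loci.

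**Figure D3:**
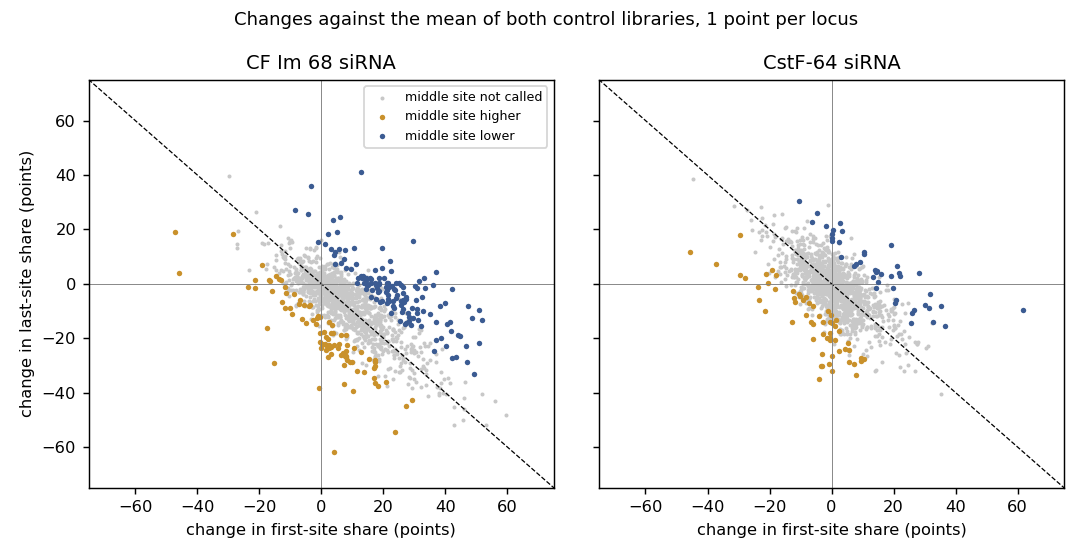
Change in the share of the last site (points, vertical axis) against the change in that of the first site (points, horizontal axis), each against the mean of both control libraries, for CF Im 68 siRNA and CstF-64 siRNA, with 1 point per locus. On the dashed line the middle site does not change; colours mark loci whose middle site was called, and with CF Im 68 siRNA most points lie to the lower right, with a first site higher in 475 loci and a last site lower in 378.

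By the mean of both controls, the last site was the most used in 564 loci, the middle in 457 and the first in 405. Where the last site led, its mean share was 52.9% with CF Im 68 siRNA, 67.2% with control siRNA and 67.6% with no siRNA, and it was called lower in 286 loci. The first site had 27.2% with CF Im 68 siRNA, 15.4% with control siRNA and 15.1% with no siRNA there, and was called higher in 243 loci. The middle site of these loci had 20.0% with CF Im 68 siRNA, 17.4% with control siRNA and 17.3% with no siRNA, and was called higher in 63 and lower in 15.

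Where the middle site led, it had 59.5% with CF Im 68 siRNA, 64.9% with control siRNA and 65.3% with no siRNA, and it was lower in 101 loci and higher in 12. The first site was higher in 138 of these and lower in 4, while the last was lower in 47 and higher in 14. Where the first site already led, its share was 68.0% with CF Im 68 siRNA, 62.5% with control siRNA and 63.4% with no siRNA, with 94 loci higher and 16 lower. The middle site of these was higher in 14 and lower in 23. With CstF-64 siRNA the middle site was higher in 27 and lower in 10 where the last site led, and higher in 15 and lower in 25 where it led itself. Loci were sorted here by the same control libraries that the calls use, which by itself favours falls of a leading site and rises of a minor one, so these splits are a description only. Nor were the splits by leading site counted over all tested loci. By its mean share in the controls, the first site was higher with CF Im 68 siRNA in 36.5% of loci below 25%, 40.8% from 25 to 50%, 25.8% from 50 to 75% and 1.11% above. It was lower in 0.247%, 3.19%, 2.87% and 6.67% of them in that order. The limit of 10 points bars a call of higher near the ceiling and of lower near the floor, which fixes part of this course. No such share was taken over all tested loci.

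The leading site changed in many loci. It was a more 5′ site with CF Im 68 siRNA than in the mean of the controls in 236 loci (16.5%) and a more 3′ site in 38 (2.66%). The lead passed from the last to the first site in 118 loci, from the middle to the first in 73 and from the last to the middle in 45. With CF Im 68 siRNA the first site led in 576 loci, the middle in 424 and the last in 426. Between control siRNA and no siRNA, the lead was more 5′ in 69 loci (4.84%) and more 3′ in 90 (6.31%). That pair sets a single library against another, while the depletion was set against the mean of the controls. Changes of lead were not counted over all tested loci, so they cannot be called particular to 3-site loci.

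To see whether the middle site gained on the last apart from the gain of the first, the reads past the first site were taken alone. For this, 50 or more middle and last reads were required in every library, which 1166 loci had. There the middle site held a mean of 50.9% of these reads with CF Im 68 siRNA, 48.3% with CstF-64 siRNA, 46.7% with control siRNA and 46.9% with no siRNA. The median difference with CF Im 68 siRNA was 3.54 points from control siRNA and 3.43 points from no siRNA, and over 3121 inner sites of all loci, set against the sites 3′ of them, it was 3.38 and 3.76 points. The middle site was called higher among these reads in 162 loci (13.9%, against 15.7% of all inner sites) and lower in 37 (3.17%, against 3.46%). Control siRNA against no siRNA gave 125 loci higher (10.7%, against 11.1%) and 133 lower (11.4%, against 9.32%) by the 2-library rule. By that rule CF Im 68 siRNA against control siRNA gave 20.2% higher and 4.8% lower, with no share over all inner sites taken. The shares called with CF Im 68 siRNA against both controls lay near those over all inner sites.

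Calls with CF Im 68 siRNA varied with the spacing of the sites. No share by spacing was taken over all tested loci or between the control libraries. The course can thus not be called particular to these loci. At the shortest gaps, some neighbours may be parts of the same broad site. With 26 to 100 nt between first and middle site, the first was higher in 33 of 233 loci (14.2%) and the last lower in 56 (24.0%). With 101 to 200 nt between them the first site was higher in 25.0% of loci. The share was 37.3% for gaps of 201 to 500 nt and 42.9% for 501 to 1000 nt. It reached 50% for 1001 to 2000 nt, and was 36.3% for 2001 to 5000 nt and 18.3% for longer gaps. Calls of a lower middle site followed a similar course, with 4 loci (1.72%) at 26 to 100 nt, 42 (18.3%) at 1001 to 2000 nt and 11 (9.57%) above 5000 nt.

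By the gap between the middle and the last site, the first site was higher in 23.9% of loci where that gap was 26 to 100 nt and in 33.5 to 40.7% of loci in each class from 101 to 5000 nt, and in 22.7% above that. Where the first and middle sites were within 200 nt and the last more than 1000 nt away, both upstream sites had larger mean shares with CF Im 68 siRNA. In these 189 loci the first site had 39.9% with CF Im 68 siRNA, 32.5% with control siRNA and 32.5% with no siRNA. The middle site of these loci had 32.7% with CF Im 68 siRNA, 31.1% with control siRNA and 31.2% with no siRNA. The last site of these loci had 27.4% with CF Im 68 siRNA, 36.4% with control siRNA and 36.3% with no siRNA, and was called lower in 56.

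The mirror case, with the first site more than 1000 nt upstream of a middle and a last site within 200 nt of each other, was found in 123 loci. There the first site had 34.3% with CF Im 68 siRNA, 24.5% with control siRNA and 23% with no siRNA, while both downstream sites had smaller shares. The middle site had 31.4% with CF Im 68 siRNA, 34.6% with control siRNA and 36.2% with no siRNA, and was lower in 21 loci and higher in 3. Where both gaps exceeded 1000 nt, in 243 loci, the middle site was lower in 35 and higher in 13. Whether spacing acts apart from the starting shares of the sites was not tested.

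**Figure D4:**
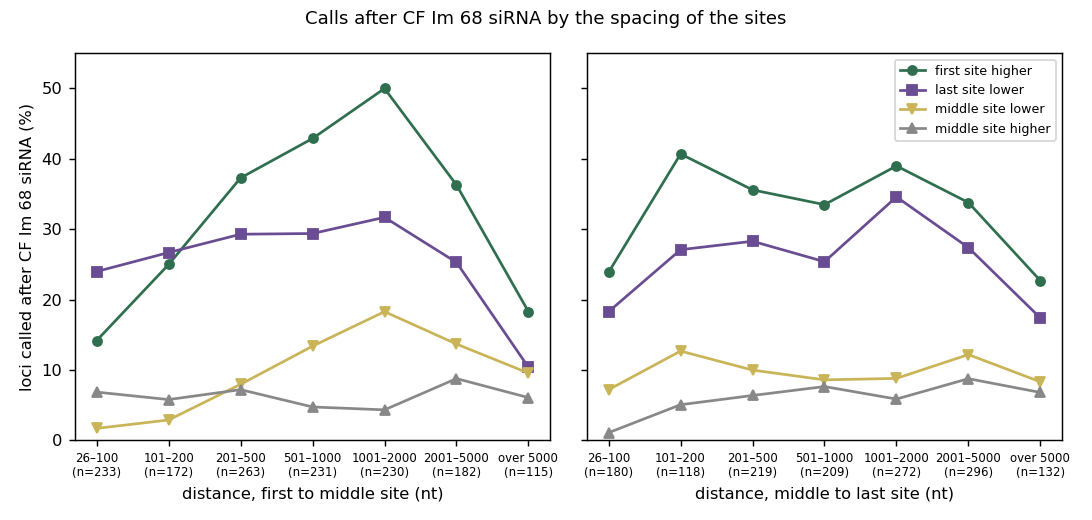
Percentage of 3-site loci called with CF Im 68 siRNA against both controls (vertical axis) by the distance from first to middle site and from middle to last site (nt, horizontal axes, in classes with their number of loci). First sites called higher peak at 50% where the first and middle sites are 1001 to 2000 nt apart, against 14.2% at 26 to 100 nt. No share by spacing was taken over all tested loci.

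The 9 loci of the stacked-bar plot show the patterns in single cases, each being the leading locus of its kind by the smaller of its differences from the 2 controls, among the 1039 loci with at least 100 reads in every library and no site confined to 1 library. They are lettered A to I. In 5 of all 1426 loci a site had over 95% of its RPM in a single library, and these 5 are not among the lettered loci. The p-values given for single loci are adjusted ones of Fisher's exact test against control siRNA.

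Locus A lay on the minus strand of chromosome 1, with its first, middle and last sites at 226172768, 226170509 and 226170406. The first site had 78.4% of 625 reads with CF Im 68 siRNA (95% interval 75 to 81.6%), 46.0% of 161 with CstF-64 siRNA, 20.4% of 260 with control siRNA (15.7 to 25.8%) and 24.1% of 199 with no siRNA (adjusted p = 1.9e-57). The last site, which led in the controls, had 19.2% with CF Im 68 siRNA, 51.6% with CstF-64 siRNA, 68.5% with control siRNA and 56.3% with no siRNA. The middle site, 103 nt from the last, had 2.40% with CF Im 68 siRNA, 2.48% with CstF-64 siRNA, 11.2% with control siRNA and 19.6% with no siRNA, and was not called.

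A locus on the minus strand of chromosome 6, with sites at 90039331, 90037790 and 90036345, lost reads at both downstream sites in a graded way. The first site had 88.0% of 2248 reads with CF Im 68 siRNA, 58.9% of 482 with CstF-64 siRNA, 40% of 780 with control siRNA and 37.7% of 803 with no siRNA. The middle site had 3.51% with CF Im 68 siRNA, 15.1% with CstF-64 siRNA, 19.2% with control siRNA and 19.9% with no siRNA, and the last 8.45%, 25.9%, 40.8% and 42.3% in that order. CstF-64 siRNA gave values between those with CF Im 68 siRNA and those of the controls at all 3 sites.

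On the plus strand of chromosome X, with sites at 41207389, 41209457 and 41209523, only the CF Im 68 library stood apart. The first site had 58.8% of 4586 reads with CF Im 68 siRNA, 12.5% of 1026 with CstF-64 siRNA, 13.3% of 2547 with control siRNA and 14.6% of 2530 with no siRNA. Both downstream sites, 66 nt apart, had smaller shares, and the middle one had 31.3% with CF Im 68 siRNA, 57.0% with CstF-64 siRNA, 56.9% with control siRNA and 57.1% with no siRNA (adjusted p = 5.5e-96). A locus on the plus strand of chromosome 13, at 49781557, 49783729 and 49783915, had almost no reads at its first site outside the CF Im 68 library. That site had 37.0% of 575 reads with CF Im 68 siRNA, 1.82% of 110 with CstF-64 siRNA, 0.997% of 702 with control siRNA and 0.745% of 537 with no siRNA. In all, the first site was below 5% in both controls in 114 loci, and 113 of these had at least 5% there with CF Im 68 siRNA. The middle site was below 5% in both controls in 23 loci and the last in 12. Such sites are counted through the depleted libraries, and a call of higher use at them was favoured by that choice.

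Locus E, on the minus strand of chromosome 16 at 66757543, 66757484 and 66754800, was used almost wholly at its last site except with CF Im 68 siRNA. The last site had 39.3% of 842 reads with CF Im 68 siRNA, 93.3% of 104 with CstF-64 siRNA, 93.4% of 409 with control siRNA and 93.8% of 325 with no siRNA. The first and middle sites, 59 nt apart, were below 5% in both controls and count as sites through the CF Im 68 library, so that choice favoured a difference there. The first had 26.4% with CF Im 68 siRNA, 3.85% with CstF-64 siRNA, 2.44% with control siRNA and 2.46% with no siRNA, and the middle 34.3%, 2.88%, 4.16% and 3.69% in that order. A similar pair of close upstream sites lay on the minus strand of chromosome 8, at 124027511 and 124027453, with the last site at 124025588. Its middle site had 60.5% with CF Im 68 siRNA, 32.2% with CstF-64 siRNA, 29.3% with control siRNA and 32.6% with no siRNA, and its last site 29.1%, 60.7%, 66.6% and 65.3%.

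Some loci went the other way with CF Im 68 siRNA. Locus C, on the minus strand of chromosome 14 at 102551279, 102547931 and 102547391, gained at its middle site, which had 45.4% of 3295 reads with CF Im 68 siRNA, 9.48% of 833 with CstF-64 siRNA, 3.29% of 3041 with control siRNA and 3.31% of 4982 with no siRNA. Its first site had 35.9% with CF Im 68 siRNA, 81.8% with CstF-64 siRNA, 79.7% with control siRNA and 84.2% with no siRNA, while the last, at 18.6%, 8.76%, 17.0% and 12.5%, was not called. This middle site, 540 nt from the last, was below 5% in both controls, and so was chosen largely through the CF Im 68 library.

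Locus D, on the plus strand of chromosome 16 at 50264593, 50265742 and 50269218, was used at its middle site in the other libraries and split to both sides with CF Im 68 siRNA. The middle site had 39.6% of 326 reads with CF Im 68 siRNA, 87.1% of 116 with CstF-64 siRNA, 93.2% of 249 with control siRNA and 93.8% of 194 with no siRNA. The first had 17.8% with CF Im 68 siRNA, 11.2% with CstF-64 siRNA, 4.42% with control siRNA and 5.67% with no siRNA, and the last 42.6%, 1.72%, 2.41% and 0.515%. This last site was likewise below 5% in both controls. The pattern, with the middle lower and both outer sites higher, was found in 3 loci.

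**Figure D5:**
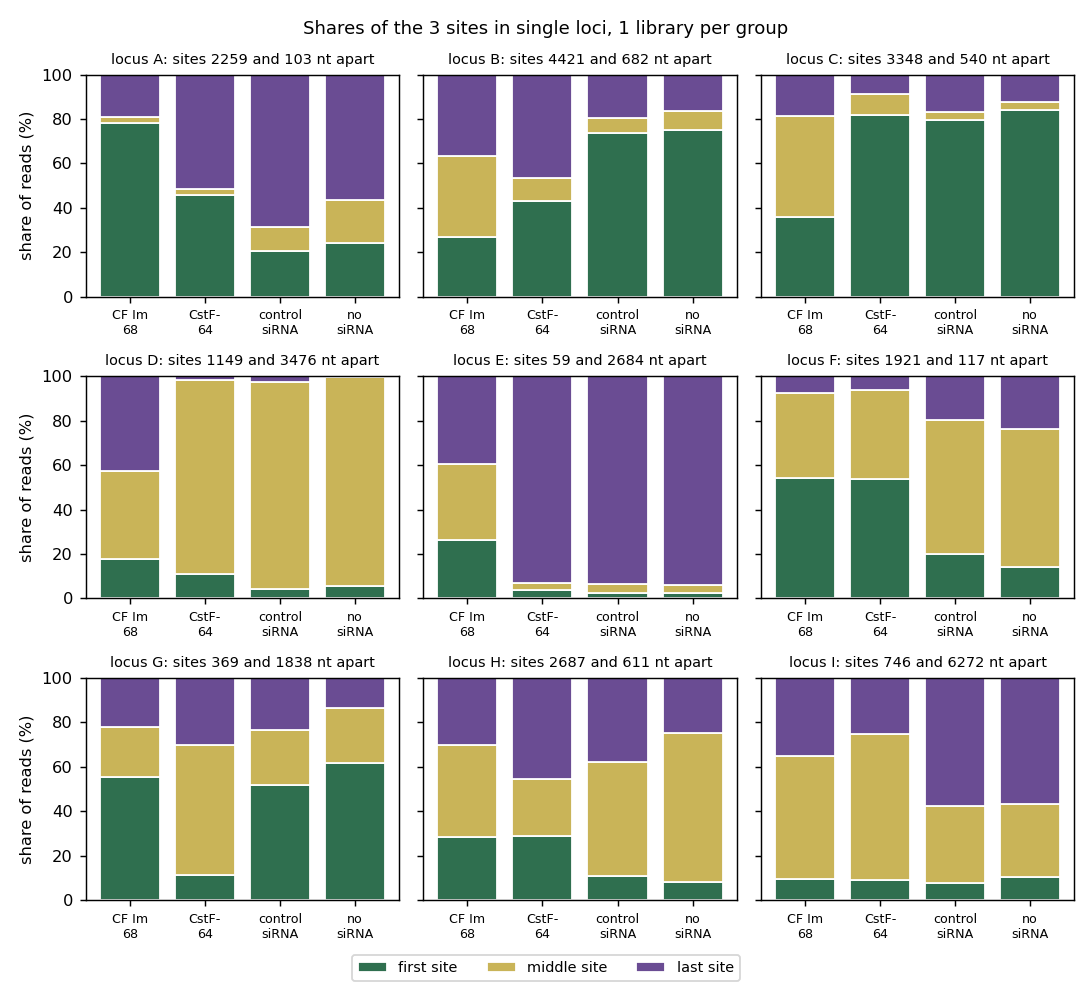
Stacked shares of the first, middle and last site (%, vertical axis) in each of the 4 libraries for the 9 lettered loci, with the distances between neighbouring sites in the panel titles. Locus A shifts to its first site with CF Im 68 siRNA (78.4%, against 20.4% with control siRNA), locus D splits to both sides of its middle site, locus E gains at 2 close upstream sites, and locus G stands apart with CstF-64 siRNA with 58.7% at its middle site.

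With CstF-64 siRNA the sites of these loci differed little from the controls on average, and calls were near the background of all tested loci. The first site was higher in 92 loci (6.45%, against 6.32% of all first sites) and lower in 44 (3.09%, against 2.97%). The middle site was higher in 59 (4.14%, against 4.23% of inner sites) and lower in 45 (3.16%, against 3.09%). The last site was lower in 120 (8.42%, against 7.16%) and higher in 39 (2.73%, against 2.87%). The first-site share with CstF-64 siRNA minus that with control siRNA had a median of 0.684 points, and minus that with no siRNA 0.748 points. At the last site the medians were -1.24 and -1.48 points.

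By the 2-library rule against control siRNA, the first site was higher with CstF-64 siRNA in 115 loci (8.06%, against 8.11% of all first sites) and lower in 62 (4.35%, against 4.17%). Between the 2 control libraries the same rule gave 109 higher and 121 lower. Against no siRNA alone the first site was higher in 218 loci (15.3%, against 15% of all first sites) and lower in 176 (12.3%, against 11.2%). The middle site was then higher in 227 (15.9%, against 13.4% of inner sites) and lower in 167 (11.7%, against 10.8%), and the last higher in 167 (11.7%, against 11%) and lower in 280 (19.6%, against 17.6%). Any site was called in 266 loci (18.7%) against both controls, where 15.2% of all tested loci had a call, and in 711 (49.9%, against 40.2%) by the 2-library rule against no siRNA. Among the reads past the first site, the middle was higher in 82 of 1166 loci (7.03%, against 6.60% of all inner sites) and lower in 31 (2.66%, against 3.04%). Against the mean of the controls, the lead passed to a more 5′ site in 104 loci (7.29%) and to a more 3′ site in 68 (4.77%). This too was not counted over all tested loci.

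Single loci nevertheless differed strongly with CstF-64 siRNA. Locus G, on the plus strand of chromosome 12 at 54678664, 54679033 and 54680871, was among the 5 loci of highest mean RPM. Its first site had 55.5% of 9087 reads with CF Im 68 siRNA, 11.2% of 3185 with CstF-64 siRNA, 51.8% of 11673 with control siRNA and 61.9% of 20554 with no siRNA. The middle site was higher with CstF-64 siRNA (adjusted p = 2.3e-273 against control siRNA). It had 22.4% with CF Im 68 siRNA, 58.7% with CstF-64 siRNA, 24.6% with control siRNA and 24.5% with no siRNA. The last site had 22.1%, 30%, 23.6% and 13.5%, and the controls differed from each other there by more than CstF-64 siRNA did from control siRNA.

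A second locus of this kind lay on the minus strand of chromosome 14 at 24686072, 24683162 and 24679062. Its first site had 67.2% of 3160 reads with CF Im 68 siRNA, 30.1% of 1307 with CstF-64 siRNA, 61.1% of 3344 with control siRNA and 73.7% of 5374 with no siRNA. The middle site gained, with 22.8% with CF Im 68 siRNA, 54.1% with CstF-64 siRNA, 29.6% with control siRNA and 18.3% with no siRNA (adjusted p = 4.4e-51 for CstF-64 siRNA). In both loci the CstF-64 library was low at the first site and high at the middle one, and the CF Im 68 library lay between the controls at the first site.

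Locus F, on the minus strand of chromosome 10 at 22825823, 22823902 and 22823785, led the rises of a first site with CstF-64 siRNA among the 69 called loci eligible for naming. That site had 54.3% of 1148 reads with CF Im 68 siRNA, 53.8% of 234 with CstF-64 siRNA, 20.2% of 648 with control siRNA and 14.1% of 767 with no siRNA (adjusted p = 3.8e-19 for CstF-64 siRNA). The middle and last sites, 117 nt apart, were both lower under either depletion. The last had 7.67% with CF Im 68 siRNA, 5.98% with CstF-64 siRNA, 19.6% with control siRNA and 23.6% with no siRNA. On the plus strand of chromosome 17, the locus at 43715325, 43716669 and 43723589 had a larger first-site share with CstF-64 siRNA than with CF Im 68 siRNA, with 63.5% of 1392 reads with CF Im 68 siRNA, 74.1% of 582 with CstF-64 siRNA, 44.7% of 1065 with control siRNA and 48.2% of 1332 with no siRNA.

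Locus I, on the plus strand of chromosome 17 at 37819709, 37820455 and 37826727, moved from its last to its middle site, 6272 nt upstream, while its first site stayed between 7.56 and 10.5% in the 4 libraries. The middle site had 55.4% of 204 reads with CF Im 68 siRNA, 65.5% of 142 with CstF-64 siRNA, 34.6% of 410 with control siRNA and 32.7% of 306 with no siRNA (adjusted p = 5.5e-09 for CstF-64 siRNA). The same course was seen on the minus strand of chromosome 1 at 95362961, 95362765 and 95362515. There the middle site had 48.5% of 771 reads with CF Im 68 siRNA, 54.0% of 226 with CstF-64 siRNA, 24.1% of 643 with control siRNA and 23.5% of 613 with no siRNA.

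Locus H, on the minus strand of chromosome 17 at 54968569, 54965882 and 54965271, lost at its middle site with CstF-64 siRNA. That site had 41.4% of 324 reads with CF Im 68 siRNA, 25.6% of 125 with CstF-64 siRNA, 51.1% of 274 with control siRNA and 66.9% of 284 with no siRNA (adjusted p = 2.3e-05 for CstF-64 siRNA). The 2 control libraries also differed from each other by more than 10 points there. Locus B, on the plus strand of chromosome 16 at 3018381, 3022802 and 3023484, lost at its first site under either depletion. It was called higher at its last site under either depletion, and at its middle site with CF Im 68 siRNA only. Its first site had 26.9% of 331 reads with CF Im 68 siRNA, 42.9% of 112 with CstF-64 siRNA, 73.5% of 392 with control siRNA and 74.9% of 610 with no siRNA. The middle site had 36.3% with CF Im 68 siRNA, 10.7% with CstF-64 siRNA, 7.14% with control siRNA and 8.52% with no siRNA, while the last had 36.9%, 46.4%, 19.4% and 16.6%.

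The loci with the most reads showed how far abundant loci can differ without a call. The locus of highest level, 1159 RPM on the plus strand of chromosome 19 at 2273238, 2273324 and 2273487, had 84.1% at its first site with CF Im 68 siRNA, 82.4% with CstF-64 siRNA, 70.8% with control siRNA and 84.4% with no siRNA. There the control siRNA library stood apart from the other 3, so neither depletion gave a call although each differed from control siRNA by more than 10 points. The locus on the plus strand of chromosome 12 at 6975794, 6979993 and 6980109, with 949 RPM, kept its middle site at 84.2% with CF Im 68 siRNA, 80.5% with CstF-64 siRNA, 83.3% with control siRNA and 90.2% with no siRNA. A chromosome 8 locus on the minus strand (24809889, 24808942 and 24808480), with 757 RPM, had a higher first site under either depletion, with 80.9% with CF Im 68 siRNA, 87.4% with CstF-64 siRNA, 59.3% with control siRNA and 64% with no siRNA.

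Compared directly by the 2-library rule, the first site was higher with CF Im 68 siRNA than with CstF-64 siRNA in 454 loci (31.8%, against 26.4% of all first sites) and lower in 30 (2.10%, against 3.33%). The middle site was higher in 107 (7.50%, against 7.56% of inner sites) and lower in 193 (13.5%, against 13.2%). The last site was lower in 382 (26.8%, against 21.8%) and higher in 47 (3.30%, against 3.67%). Any site was called in 696 loci (48.8%, against 38.3% of all tested loci). The median difference in first-site share was 6.15 points.

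The mean end position, the read-weighted distance of the reads from the first site, summarises the 3 shares as a length. It had a mean over loci of 1405 nt with CF Im 68 siRNA, 1565 nt with CstF-64 siRNA, 1614 nt with control siRNA and 1622 nt with no siRNA. With CF Im 68 siRNA the median difference from control siRNA was -104 nt, or -6.49% of the span of the locus, and -114 nt from no siRNA. It was shorter than with control siRNA by at least 200 nt in 526 loci (36.9%, against 30.7% of all tested loci) and longer in 120 (8.42%, against 7.80%). With CstF-64 siRNA the median difference from control siRNA was -11.2 nt, with 262 loci shorter (18.4%, against 15.8%) and 175 longer (12.3%, against 10.0%). Control siRNA minus no siRNA gave a median of 0.179 nt, with 229 loci shorter (16.1%, against 13.6%) and 191 longer (13.4%, against 11.2%) by as much.

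Locus totals were compared without a test, as log2 ratios of RPM plus 1. The median ratio of the 3-site loci was 0.16 for CF Im 68 siRNA over control siRNA and 0.27 over no siRNA, against 0.02 and 0.13 over 17877 loci with at least 50 reads in all. For CstF-64 siRNA it was -0.14 and -0.01, against -0.19 and -0.08 over those loci. Totals were at least 2-fold higher than in both controls in 70 loci (4.91%, against 5.02% of those loci) and at least 2-fold lower in 7 (0.491%, against 1.86%) with CF Im 68 siRNA. With CstF-64 siRNA they were higher in 10 (0.701%, against 1.82%) and lower in 38 (2.66%, against 6.11%). The 17877 loci are not a like background, since 3-site loci needed at least 50 reads in every library. Of the 285 loci left out by that limit, 271 had the fewest reads with CstF-64 siRNA. Totals of 3-site loci also summed the counted sites alone. The smaller shares past 2-fold are thus no trait shown for 3-site loci. The 475 loci with a higher first site with CF Im 68 siRNA had a median log2 ratio of 0.30 over control siRNA and 0.41 over no siRNA, and the other 3-site loci 0.09 and 0.21. The 92 loci with a higher first site with CstF-64 siRNA had lower ratios than the rest, with -0.26 over control siRNA and -0.08 over no siRNA, against -0.13 and -0.00 in the others. Both sets were picked by reads that also enter the totals, so these ratios are a description only. They were not taken over all loci or with another scaling. In bulk RNA, fewer cells with a transcript and less of it per cell cannot be told apart. The totals changed with the scaling. With TMM factors, which bring the median of all loci to 0.00, the median of the 3-site loci was 0.13 over control siRNA and 0.12 over no siRNA with CF Im 68 siRNA. With CstF-64 siRNA it turned to 0.07 and 0.08 with these factors, and 1.75% of loci were then at least 2-fold higher and 1.54% lower.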

How the data were processed

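The authors deposited the raw count of reads ending at each stranded nucleotide position, on hg19 per the submitters' processing notes; the aligner and the handling of multiple matches and of PCR copies are not given in the sources used here. A-seq followed the labels' protocols. Positions were grouped into 33723 sites and loci as the report describes. Site shares were compared with two-sided Fisher's exact tests (own implementation, checked against SciPy 1.17.1) and Benjamini-Hochberg adjustment, in Python 3.11.15 with NumPy 2.4.6, pandas 2.3.3 and numba 0.67.0. The rule was run on simulated reads, in which libraries differed by counting error and by the changes put in. Its rate of false calls under variation among cultures was therefore not tested. TMM factors came from edgeR 4.0.16 in R 4.3.3 and were used for locus totals only, since no count model can be fitted without replicates. Exact Clopper-Pearson intervals cover counting error only. Copies of 1 fragment count as several reads.

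Loci were named by a fixed rule: for each depletion, the leading called rises and falls at each site, ranked by the smaller difference from the 2 controls, plus the 5 loci of highest mean RPM. The text gives values for part of these 43 loci. The loci, the rule and the settings were chosen with earlier results of these data known. Position numbers in the deposited files have gaps, so some positions appear to have been removed, by a step that no header or label records. Genome sequence of hg19 and gene names were not used here.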

Additional observations from a re-analysis of the deposited data

Results flagged for a closer look

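In 1 locus the first site was called higher with CF Im 68 siRNA and lower with CstF-64 siRNA, and in 2 loci the last site was called lower with CF Im 68 siRNA and higher with CstF-64 siRNA. They were picked out because the depletions moved the same site in opposite directions. The call rule alone puts the depleted libraries more than 20 points apart at such a site, so the direct Fisher's exact test between them adds no support. At 65497291 on the plus strand of chromosome 2, the first site had 37.4% of 495 reads with CF Im 68 siRNA, 6.26% of 975 with CstF-64 siRNA, 26.8% of 325 with control siRNA and 18.6% of 295 with no siRNA (adjusted p = 7.3e-47 between the depletions). This locus is among the 5 in which a site had over 95% of its RPM in 1 library. At 24171991 on the minus strand of chromosome 6, the last site had 16.3% of 307 reads with CF Im 68 siRNA, 49.2% of 130 with CstF-64 siRNA, 36.1% of 316 with control siRNA and 31.6% of 307 with no siRNA (adjusted p = 8.4e-11). At 56131683 on the plus strand of chromosome 7, the last site had 21.9% of 1522 reads with CF Im 68 siRNA, 45.5% of 778 with CstF-64 siRNA, 35.1% of 1382 with control siRNA and 34.4% of 855 with no siRNA (adjusted p = 5.2e-29). Each test compares 2 libraries and not conditions.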

How the results depend on the processing

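No paired analysis was possible because each group had 1 library. The 12 other ways to choose sites, loci and reads left 1032 to 1711 loci and gave first sites called higher with CF Im 68 siRNA in 27.8 to 39.0% and last sites called lower in 20.6 to 28.6%. The lowest of both came with sites and loci chosen on the 2 control libraries, where 1318 loci remained and 1.44% had a lower first site. With all libraries thinned to the smallest, 29.5% had a higher first site with CF Im 68 siRNA, and 18.3% any call with CstF-64 siRNA. Loci with at least 5% at every site in both controls, and those without a site of 1 library, were chosen after seeing the data. With sites of at least 10% of the locus, the first site was lower with CF Im 68 siRNA in 2.55%, and the middle was lower among middle and last reads with CstF-64 siRNA in 4.18%.

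A limit of 20 points gave fewer calls by construction. No share over all tested loci was taken at this limit. With CF Im 68 siRNA 17.9% of loci had any call, with 13.5% higher and 0.351% lower at the first site, 0.842% and 2.66% at the middle, 0.281% and 9.05% at the last, and 3.60% and 0.772% among middle and last reads. With CstF-64 siRNA 5.12% had any call, with 1.75% and 0.842%, 1.12% and 0.771%, 0.491% and 2.31%, and 2.32% and 0.686% in that order. It was 6.80% for control siRNA against no siRNA and 20.9% for CF Im 68 against CstF-64 siRNA.

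With control siRNA as the only control, CF Im 68 siRNA gave 2.59% lower first sites, against 3.23% of all first sites. It gave 9.40% higher middle sites and 4.80% lower middle sites among middle and last reads, and CstF-64 siRNA gave 6.38% higher middle sites. For these middle sites no share over all inner sites was taken. With no siRNA alone, CF Im 68 siRNA gave 7.01% lower first sites, 14.8% higher and 18.7% lower middle sites, 6.31% higher last sites, and 27.0% higher and 10.5% lower among middle and last reads. CstF-64 siRNA then gave any call in 49.9%, with 15.3% higher and 12.3% lower at the first site, 15.9% and 11.7% at the middle, 11.7% and 19.6% at the last, and 20.2% and 13.0% among middle and last reads. For middle and last reads against no siRNA alone, no share over all inner sites was taken. The median middle-site difference with CF Im 68 siRNA turned to 0.0336 points. The cause was not tested. Locus totals with CstF-64 siRNA were at least 2-fold higher in 1.75% and lower in 1.54% with TMM factors, and 1.89% and 1.40% with median-of-ratios factors. A pseudocount of 0.1 RPM gave 0.771% lower with CF Im 68 siRNA. Median-of-ratios factors gave 3-site loci a median log2 total of 0.10 over either control with CstF-64 siRNA, against -0.14 and -0.01 as reported.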
